A study of Mus musculus with 27 samples.

Results

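The mitochondrial ribosomal protein genes were taken from the counts of mouse frontal cortex and striatum as every protein-coding gene whose symbol is Mrpl or Mrps followed by a number and at most 1 letter. The rule used names alone and no measured value, and it found 77 genes among 52636 gene identifiers, 48 named Mrpl and 29 named Mrps, on 17 chromosomes. By the place of the protein in the ribosome, 29 belong to the large subunit and have a bacterial homologue. Another 21 belong to the large subunit and were counted as found in mitochondrial ribosomes but not in bacterial ones. The small subunit has 16 members with a bacterial homologue and 10 counted as without. Mrps18a and Mrps18b were counted as without a homologue, although both are paralogues of bacterial S18. Mrps30 and Mrps18a keep a small-subunit name although their proteins sit in the large subunit. Mrps36 is named as a ribosomal protein but is known as a part of the 2-oxoglutarate dehydrogenase complex, and was counted with neither subunit. Mrpl33 was not analysed here.

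The 27 libraries came from adult mice of the 129S1 background at about 2.5 months of age. Frontal cortex was sampled from 6 wild-type and 6 Igf2enh-/- mice, and striatum from 7 wild-type and 8 Igf2enh-/- mice, with 3 or 4 mice of each sex in a group. Igf2enh-/- mice are homozygous for the deletion of a 4.9 kb fragment between H19 and Igf2, with 1 loxP site left after the selection cassette was removed by Hprt-Cre, and wild-type mice carry no deletion. The comparisons ask whether loss of the enhancer, brain region or sex was accompanied by other levels of these mRNAs.

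The mitochondrial ribosome translates the mRNAs of the mitochondrial genome, which all encode subunits of the respiratory chain and ATP synthase. Its ribosomal RNAs are mitochondrial, whereas its proteins are encoded in the nucleus, made in the cytosol and imported, so a ribosome can be built only when many nuclear genes and the mitochondrial genome are both expressed. Neurons depend heavily on the respiratory chain, and defects in several of these proteins cause disease of brain, muscle or heart.

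Total counts ran from 23686945 to 33926904 per library, so that 1 CPM, the unit of counts scaled to library size, stood for 23.7 to 33.9 counts. The deletion removes no exon, so no count checks it directly. Igf2 itself ran from 52 to 107 CPM in wild-type and from 88.4 to 173 CPM in Igf2enh-/- cortex, which overlap. Its medians there were 71.3 and 119 CPM. In striatum Igf2 ran from 34.1 to 44 CPM and from 46 to 258 CPM, which do not overlap. The striatum medians were 37.1 and 51.8 CPM, so the highest value lay far above the median of its group. The regions matched their labels, since all 10 striatal neuron markers were higher in every striatum library than in every cortex library. Markers of other cells also differed: the 8 oligodendrocyte markers summed to 981 to 2094 CPM in cortex and 4841 to 10570 CPM in striatum, with no overlap for any of the 8. Markers of cortical projection neurons summed to 2476 to 2747 CPM in cortex and at most 1352 CPM in striatum, and 8 of 10 did not overlap. In striatum these sums were uneven, from 100 CPM in library 22 to 1352 CPM in library 20, with library 23 at 1007 CPM. Libraries 15, 20 and 22, all striatum, were left out together as an alternative because they had stood apart in earlier work on these counts, and the choroid plexus markers of library 15 (Igf2enh-/-) summed to 4583 CPM against at most 369 CPM in the other striatum libraries and 267 CPM in cortex.

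Of the 77 members, 76 reached at least 1 CPM in all 27 libraries, the filter used for testing, with 61 to 1981 counts per library. On the scale of CPM per kilobase of exon, the mean levels of these 76 spanned 14.8-fold around a median of 11.4. The highest were Mrpl11 at 36.5 ± 1.67 (SD, n = 27), a protein at the base of the stalk where translation factors bind, and Mrpl41 at 36.5 ± 3.39, followed by Mrpl42 at 35.1 ± 2.48 and Mrpl52 at 33.3 ± 6.87. The lowest among the 76 were Mrps36 at 2.47 ± 0.302, Mrpl13 at 2.82 ± 0.123 and Mrps35 at 3.32 ± 0.292. The length used was the union of all exons in the gene models, 7936 bases for Mrpl13 and 412 bases for Mrpl52. Over the 27 libraries Mrpl13 had 16463 counts and Mrpl52 had 10120. The span, the order and the medians below therefore depend on these lengths as well as on the counts. The order was a continuous slope: of 76 neighbouring pairs, 1 pair had ranges over the libraries that did not overlap, and that pair was Mrps36 and Mrpl53. Median levels per kilobase were 15.5 for large-subunit and 11.5 for small-subunit members with a bacterial homologue, and 11.8 and 9.51 for the mitochondrion-specific members of each subunit.

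**Figure D1:**
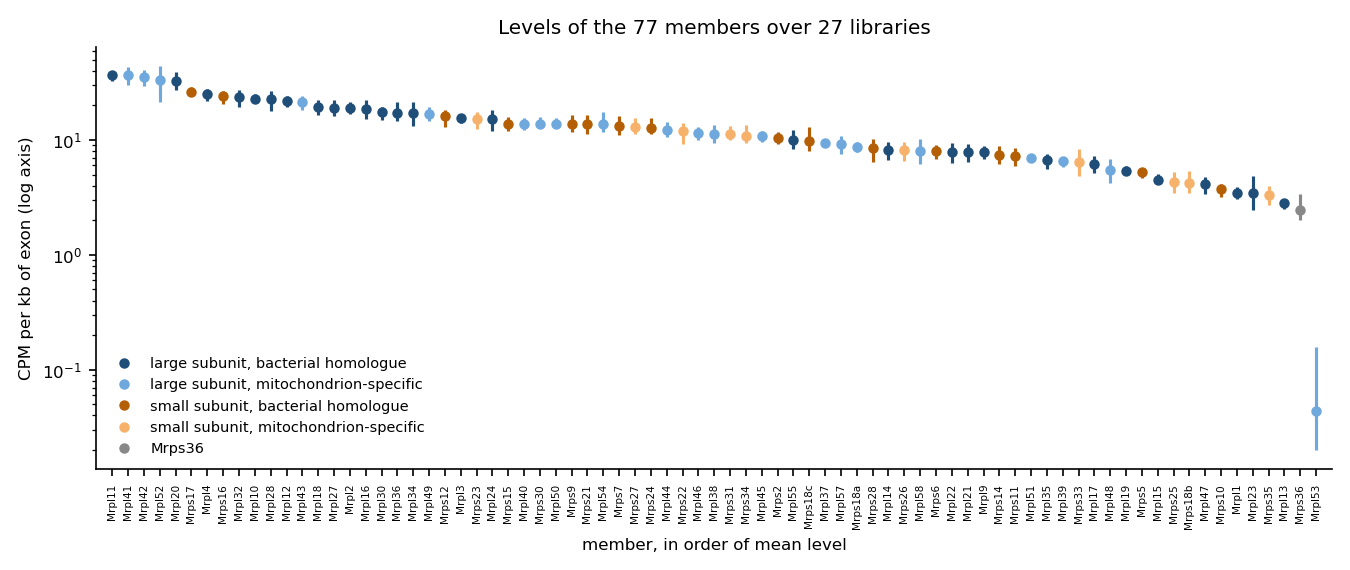
Mean level of each of the 77 members (points) with the lowest and highest of 27 libraries (vertical lines), in CPM per kilobase of exon on a log axis, in order of the mean and coloured by subunit and by presence of a bacterial homologue. Levels fall along a slope from Mrpl11 at 36.5 to Mrps36 at 2.47, and Mrpl53 lies apart at 0.044, where the line is cut short because a log axis cannot show its libraries at 0.

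Mrpl53 was the member that failed the filter. It had 24 counts over the 27 libraries, at most 3 in a library, and 11 libraries had 0, which allows up to 3 counts. In the GENCODE vM1 gene models 87.1% of its exon bases are shared with Ccdc142 on the same strand, and whether reads there were assigned to one gene, to both or to none is not given in the sources used here. The count therefore does not give its level. Over all members, 26 shared at least 1 exon base with another gene and 9 shared over 20%.

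Replicates agreed closely for most members. The standard deviation over libraries of a group, as a percentage of the mean and averaged over the 4 groups, had a median of 5.83% over the 76 members and of 8.02% over all 13414 genes tested in both regions. In single groups it was smallest for Mrps2 in wild-type cortex (1.11%), Mrps30 in Igf2enh-/- cortex (1.27%) and Mrpl44 in wild-type cortex (1.38%). It was largest for Mrps36 in wild-type cortex (14.6%), Mrpl16 in wild-type striatum (14.3%) and Mrpl52 in wild-type striatum (12.9%). With group and sex means removed, log2 CPM of pairs of members had a median correlation of 0.16 within the large subunit, 0.12 within the small subunit and 0.16 between subunits, over 27 libraries that share one scaling.

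Between regions the members divided, with some higher and some lower in striatum and with small differences for most. In wild-type mice 34 of 76 members passed the test (edgeR quasi-likelihood F-test, Benjamini-Hochberg adjusted p under 0.05 over 13414 genes), 16 higher and 18 lower in striatum, where 67.7% of all genes passed. The Igf2enh-/- mice gave 42 of 76, 13 higher and 29 lower, where 68.9% of all genes passed. The median absolute log2 fold change was 0.09 over members and 0.23 over all genes in wild-type mice, and 0.13 and 0.24 in Igf2enh-/- mice. Only 1 member, Mrpl52, differed by more than 0.5 on the log2 scale in wild-type mice, and none did in Igf2enh-/- mice, against 24.3% and 25.2% of all genes. The labels do not say which cortex and striatum libraries came from one mouse, and the fit treated them as independent. In bulk tissue, fewer cells of a type and less RNA per cell cannot be told apart, and the part of the cell type markers above in these differences was not tested.

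The wild-type and the Igf2enh-/- comparison share no library, and 66 of the 76 members (86.8%) had the same sign in both, against 91.7% of all genes. The log2 fold changes of the 76 members correlated at 0.94 between them, and those of all 13414 genes at 0.98, across genes that are not independent replicates. Of the members called, 29 were called in both, 85.3% of the wild-type calls and 69% of the Igf2enh-/- calls, with 12 higher and 17 lower in striatum and none of opposite sign. Over all genes the shared calls were 90.3% and 88.7%, and the difference from the members was not tested. With 34 and 42 calls, the members could not share all of the Igf2enh-/- calls. Without libraries 15, 20 and 22, 33 members passed in wild-type mice, including 31 of the 34, and 42 in Igf2enh-/- mice, including 41 of the 42. Scaling by total count in place of TMM changed the split in wild-type mice from 16 higher and 18 lower to 17 higher and 13 lower, which turns the larger direction, and in Igf2enh-/- mice from 13 higher and 29 lower to 16 higher and 21 lower.

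**Figure D2:**
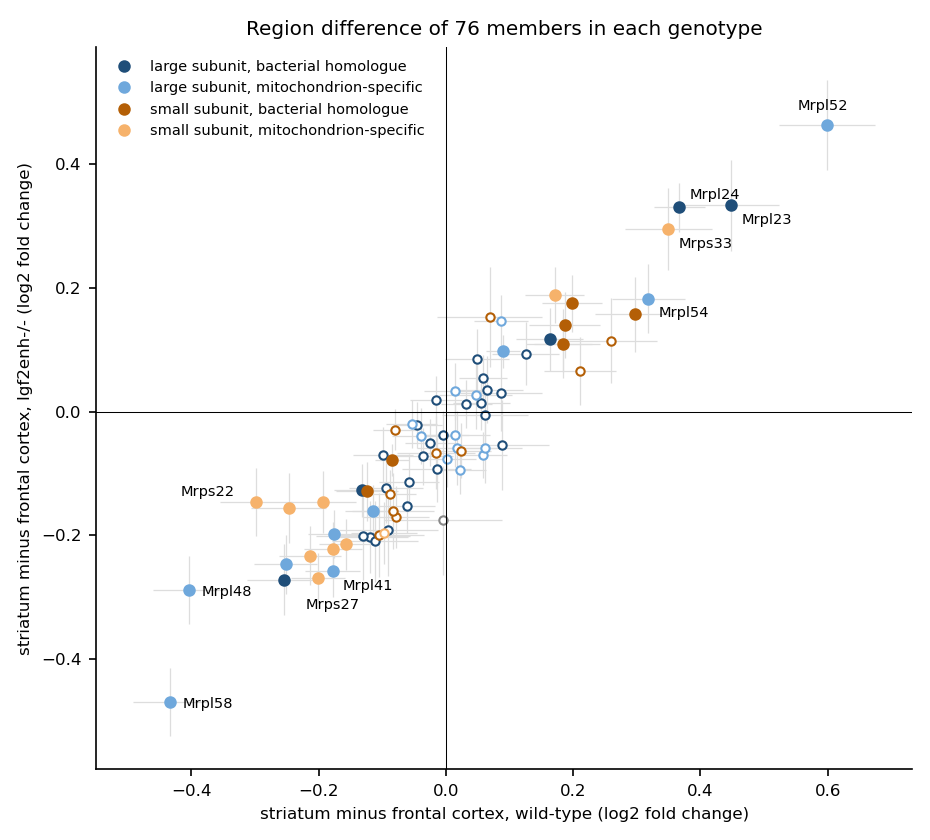
Log2 fold change of striatum over frontal cortex for 76 members in wild-type mice (x axis) and in Igf2enh-/- mice (y axis), with standard errors as grey lines; filled points passed the test in both and open points did not. Mrpl52 lies at the upper right (0.60 and 0.46), Mrpl58 at the lower left (-0.43 and -0.47), and most mitochondrion-specific members of the small subunit lie below 0 in both.

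Among large-subunit members, Mrpl24 and Mrpl23, whose proteins line the region where the new polypeptide leaves the ribosome, were higher in striatum. Mrpl24 (ENSMUSG00000019710, 3:87918131-87923450 in GRCm38) had its lowest, median and highest level at 27.2, 29.3 and 30.2 CPM in wild-type cortex and at 34.3, 37.6 and 40.1 CPM in wild-type striatum. In Igf2enh-/- mice the same values were 29.1, 30.3 and 31.2 CPM in cortex and 34.1, 38.1 and 40.9 CPM in striatum. Every striatum library lay above every cortex library. The log2 fold change was 0.37 ± 0.04 (SE) in wild-type mice (edgeR adjusted p = 2.07e-08) and 0.33 ± 0.04 in Igf2enh-/- mice (edgeR adjusted p = 5.98e-08). Mrpl24 shares 26.3% of its exon bases with Rrnad1 on the other strand, and Rrnad1 was also higher in striatum, by 0.27 and 0.18 on the log2 scale.

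Mrpl52, a mitochondrion-specific protein of the central protuberance, the crest of the large subunit, had the largest difference of any member in wild-type mice. Its levels ran from 8.9 over a median of 10.8 to 11.4 CPM in wild-type cortex and from 13.4 over 15.2 to 18.1 CPM in wild-type striatum. In Igf2enh-/- mice they ran from 10 over 11.9 to 13.3 CPM in cortex and from 14 over 15.9 to 17.9 CPM in striatum. The regions did not overlap in either genotype, and the log2 fold changes were 0.60 ± 0.08 and 0.46 ± 0.07 (edgeR adjusted p = 1.51e-07 and 3.61e-06). Mrpl23 (log2 0.45 ± 0.08 and 0.33 ± 0.07) and Mrpl54 (log2 0.32 ± 0.06 and 0.18 ± 0.06) also passed in both genotypes.

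The members lower in striatum were led by Mrpl58, a peptidyl-tRNA hydrolase built into the large subunit that can free stalled chains. Its levels ran from 28.9 over a median of 31.1 to 33.2 CPM in wild-type cortex and from 20.7 over 22.2 to 26.2 CPM in wild-type striatum. In Igf2enh-/- mice they ran from 28.8 over 31.5 to 34.1 CPM and from 20.8 over 22 to 26.4 CPM. Again the regions did not overlap, with log2 fold changes of -0.43 ± 0.06 and -0.47 ± 0.06 (edgeR adjusted p = 3.18e-07 and 4.62e-08).

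Mrpl48 and Mrpl38, both of the central protuberance, passed in the direction opposite to Mrpl52. Mrpl48 ran from 36.7 to 41.7 CPM in wild-type cortex and from 26 to 35.5 CPM in wild-type striatum, with a log2 fold change of -0.40 ± 0.06. In Igf2enh-/- mice 34.7 to 39.3 CPM in cortex overlapped 27.3 to 35 CPM in striatum, with a log2 fold change of -0.29 ± 0.05. Of its exon bases 41.9% are shared with other gene models, among them Rab6a, which was lower in striatum (log2 -1.03 and -1.01). Mrpl38 had log2 fold changes of -0.25 ± 0.05 in both genotypes. Mrpl41, a mitochondrion-specific large-subunit protein and among the highest per kilobase, had -0.18 ± 0.04 and -0.26 ± 0.04. Over the 7 members listed here for the central protuberance, 2 were higher and 2 lower in wild-type mice and 1 was higher and 2 lower in Igf2enh-/- mice. That list leaves out Mrpl58, which was lower in both genotypes. Over the 8 members at the polypeptide exit 4 were higher and none lower in wild-type mice, and 3 and 1 in Igf2enh-/- mice. The share called in both lists was below the 67.7% and 68.9% of all genes.

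**Figure D3:**
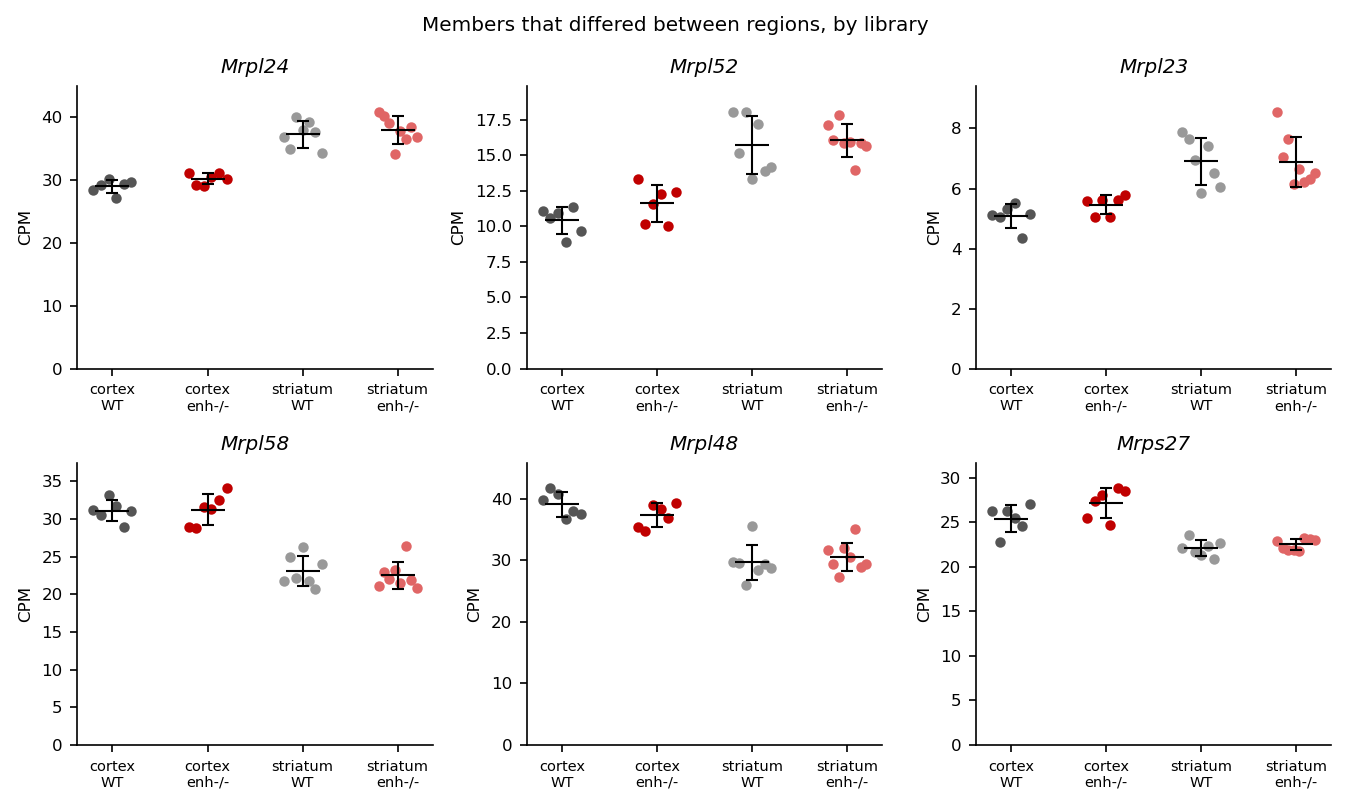
CPM of 6 members in each library (points) of wild-type (WT) and Igf2enh-/- (enh-/-) mice, with the mean and SD of each group; every axis starts at 0. Mrpl24, Mrpl52 and Mrpl23 are higher and Mrpl58 is lower in every striatum library than in every cortex library of the same genotype, while Mrpl48 in Igf2enh-/- mice and Mrps27 in wild-type mice overlap.

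Small-subunit members without a bacterial homologue were mostly lower in striatum. Of 10, 7 passed as lower and 2 as higher in wild-type mice, and 8 and 2 in Igf2enh-/- mice, with median log2 fold changes of -0.19 and -0.18. The 16 small-subunit members with a homologue split into 6 higher and 3 lower, and into 4 and 6, with medians of 0.00 and -0.05. Of all genes, 67.7% passed in wild-type and 68.9% in Igf2enh-/- mice, so the share called was above that for the 10 and below it for the 16, and neither difference was tested. Among the 10, Mrps34 shares 77.8% of its exon bases with other genes, Mrps25 53.7%, Mrps18b 30.5% and Mrps27 22.6%. Among the 16, Mrps6 shares 43.8%. The part of reads from the shared bases in these calls was not tested. Mrps27, a protein with pentatricopeptide repeats, ran from 22.8 over a median of 25.9 to 27.1 CPM in wild-type cortex and from 20.9 over 22.2 to 23.6 CPM in wild-type striatum, which overlap. In Igf2enh-/- mice cortex (24.7, 27.7 and 28.8 CPM) and striatum (21.8, 22.5 and 23.2 CPM) did not overlap. Its log2 fold changes were -0.20 ± 0.04 and -0.27 ± 0.04 (edgeR adjusted p = 0.000164 and 2.16e-06).

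Mrps22 had log2 fold changes of -0.30 ± 0.06 and -0.15 ± 0.05, Mrps23 of -0.21 ± 0.05 and -0.23 ± 0.05, and Mrps26 of -0.16 ± 0.04 and -0.21 ± 0.04. The Igf2enh-/- call of Mrps22 was lost with total count scaling and with no filter. The exceptions were Mrps33 (log2 0.35 ± 0.07 and 0.30 ± 0.07) and Mrps31 (log2 0.17 ± 0.05 and 0.19 ± 0.05). Of those with a homologue, Mrps21 (log2 0.30 ± 0.06 and 0.16 ± 0.06) and Mrps9 (log2 0.20 ± 0.05 and 0.17 ± 0.05) were higher in striatum in both genotypes. Groups that did not overlap were found for 13 members in wild-type mice, 5 higher and 8 lower in striatum, where 37.8% of all genes did not overlap. The Igf2enh-/- mice had 11, 5 higher and 6 lower, against 41.9% of all genes. Mrpl23, Mrpl24, Mrpl52 and Mrps33 were above, and Mrpl28, Mrpl58 and Mrps25 below, in both. Mrpl28 was named for this after its values had been seen, with log2 fold changes of -0.25 ± 0.06 and -0.27 ± 0.06.

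The 3 paralogues of bacterial S18 gave 3 different sets of calls, and the differences between them were not tested. Mrps18b, a small-subunit protein, was lower in striatum in both genotypes (log2 -0.25 ± 0.06 and -0.16 ± 0.06). Mrps18c, the member of the small subunit with the bacterial position, was higher in wild-type striatum (log2 0.26 ± 0.07, edgeR adjusted p = 0.00243) and had a log2 fold change of 0.11 in Igf2enh-/- mice that did not pass. Mrps18a, the paralogue of the large subunit, passed in Igf2enh-/- mice (log2 -0.09 ± 0.04, edgeR adjusted p = 0.0412) and had a log2 fold change of 0.02 in wild-type mice. That call was lost with the likelihood ratio test, total count scaling, filterByExpr, no filter and the Igf2enh-/- libraries alone, and the Igf2enh-/- call of Mrps18b with no filter. On the scale of CPM per kilobase, wild-type cortex had 8.52 for Mrps18a, 8.81 for Mrps18c and 4.73 for Mrps18b.

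Summed over the 77 members, levels were close across regions and genotypes. The sums ran from 1711 over a median of 1751 to 1787 CPM in wild-type cortex and from 1653 over 1731 to 1788 CPM in wild-type striatum. Sums in Igf2enh-/- mice ran from 1772 over 1785 to 1848 CPM in cortex and from 1669 over 1723 to 1808 CPM in striatum. Each pair of groups overlapped. The ratio of the large-subunit to the small-subunit sum lay between 1.98 and 2.08 in all 27 libraries.

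Sequence around the start of transcription was available in RefSeq (GRCm38.p6, 250 bases before to 50 after each start) for 68 of the 77 members and for 17492 protein-coding genes in all. Short cores of binding motifs for factors known to act at nuclear genes for mitochondrial proteins were searched on both strands. The ETS core CCGGAAG, which GABPA binds, was in the windows of 25 of 68 members (36.8%) and of 12.9% of all genes. The YY1 core AANATGGC was in 21 (30.9%) and 7.46%, and the NRF1 core GCATGCGC in 7 (10.3%) and 3.94%, where overlapping matches on both strands count once per gene. Of the 30 ETS matches, 27 lay from 100 bases before to 50 bases after the start. Of the 24 YY1 matches, 18 lay in that stretch and 16 were on the strand of the gene. The median position of the YY1 matches was 14.5 bases after the start. Another protein-coding gene started on the opposite strand within 1000 bases upstream of 24 of the 68 members (35.3%), against 8.48% of all genes. Among them Mrpl46 and Mrps11 start 42 bases apart. A match is a run of letters and was not measured as a bound site.

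The windows of 4 members with differences between regions described above, and of Mrps25, which had the smallest p between genotypes, are given 5′ to 3′ on the strand of the gene, with ETS and YY1 cores on either strand in capitals. Mrpl24 (3:87919294-87919593, plus strand) and Mrpl52 (14:54426659-54426958, plus strand) were higher in striatum. Mrpl58 (11:115403502-115403801, plus strand) and Mrps27 (13:99344536-99344835, plus strand) were lower.
Mrpl24: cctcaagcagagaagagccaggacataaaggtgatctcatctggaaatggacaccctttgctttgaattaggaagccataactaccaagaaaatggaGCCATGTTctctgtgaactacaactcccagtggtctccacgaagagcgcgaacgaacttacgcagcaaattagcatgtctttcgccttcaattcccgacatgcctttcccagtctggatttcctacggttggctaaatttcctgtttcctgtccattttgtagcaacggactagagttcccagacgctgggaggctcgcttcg
Mrpl52: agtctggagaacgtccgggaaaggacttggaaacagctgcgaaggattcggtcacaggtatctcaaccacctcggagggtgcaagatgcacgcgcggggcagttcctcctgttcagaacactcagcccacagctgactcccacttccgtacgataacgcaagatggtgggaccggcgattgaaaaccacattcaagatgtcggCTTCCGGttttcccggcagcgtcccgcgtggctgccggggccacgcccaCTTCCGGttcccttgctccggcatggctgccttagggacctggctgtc
Mrpl58: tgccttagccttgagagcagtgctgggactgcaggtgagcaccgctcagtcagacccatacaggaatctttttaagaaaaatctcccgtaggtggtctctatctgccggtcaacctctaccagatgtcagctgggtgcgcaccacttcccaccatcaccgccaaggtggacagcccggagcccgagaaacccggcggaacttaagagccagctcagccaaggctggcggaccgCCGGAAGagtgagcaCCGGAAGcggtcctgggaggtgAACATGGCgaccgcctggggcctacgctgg
Mrps27: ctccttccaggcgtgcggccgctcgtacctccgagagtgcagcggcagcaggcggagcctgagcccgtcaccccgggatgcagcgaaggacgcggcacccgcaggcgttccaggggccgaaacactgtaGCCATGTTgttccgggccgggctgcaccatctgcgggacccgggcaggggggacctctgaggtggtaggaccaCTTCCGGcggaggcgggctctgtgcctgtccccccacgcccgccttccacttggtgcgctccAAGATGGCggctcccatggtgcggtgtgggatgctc
Mrps25: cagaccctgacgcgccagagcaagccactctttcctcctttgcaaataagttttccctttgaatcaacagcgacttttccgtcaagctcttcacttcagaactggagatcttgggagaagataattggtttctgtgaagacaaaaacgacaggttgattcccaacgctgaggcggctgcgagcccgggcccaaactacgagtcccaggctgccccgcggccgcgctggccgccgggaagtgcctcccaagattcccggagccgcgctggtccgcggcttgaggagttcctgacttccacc
Each of the 4 windows shown for members that differed between regions holds at least 1 of these cores. These are chosen members, and the window of Mrpl41, lower in striatum in both genotypes, holds none. Over the 68 members with windows, 36.8% hold the ETS and 30.9% the YY1 core, against 12.9% and 7.46% of all genes. Whether the cores go with differences between regions was not tested. Mrpl58 has an ETS core 17 and another 2 bases before the start, and Mrpl52 has one 47 bases before and one 3 bases after it. The window of Mrps25 (6:92183974-92184273, minus strand) holds none of the 3 cores.

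**Figure D4:**
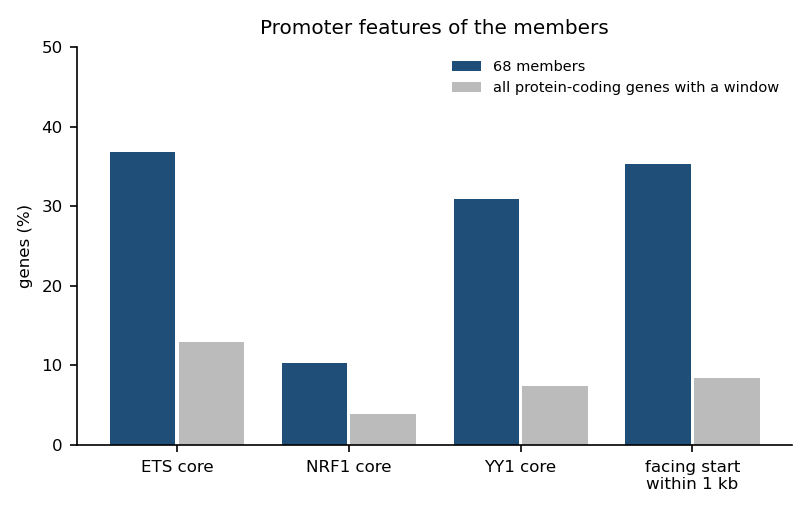
Percentage of genes whose promoter windows hold each motif core, or that have another protein-coding start facing them within 1000 bases, for 68 members (dark bars) and all 17492 protein-coding genes with a window (grey bars); the y axis is in percent of genes and starts at 0. Members have the higher percentage in each pair, such as 36.8% against 12.9% for the ETS core.

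Between genotypes, no member passed the test in either region. In data simulated to test the scripts, 59.1% of genes changed 1.2-fold were recovered in frontal cortex and 30.8% in striatum. Changes of that size or smaller could therefore be missed. In frontal cortex 0 of 76 passed, where 0.38% of all 13936 genes did, and 5 members had an unadjusted p under 0.05 (edgeR quasi-likelihood F-test), beside 1877 of the 13936 genes, a larger share than that of the members. The 5 were all higher in Igf2enh-/- mice. The 76 log2 fold changes had a median of 0.04 and 73.7% lay above 0, against a median of 0.00 and 50.4% over all genes. The members share one scaling in each library, and their mean log2 CPM had an SD of 0.036 between libraries of a group. The largest log2 fold change in size was 0.21, for Mrps36. In striatum 0 of 76 passed, where 0.036% of 13875 genes did, 6 members had an unadjusted p under 0.05, 2 higher and 4 lower, beside 1394 of all genes, and the median was 0.01. Of the 76, 36 lay above 0 and 15 below 0 in both regions, so 67.1% had the same sign, against 63.7% of 13414 genes. Another 20 lay above 0 in cortex alone and 5 in striatum alone.

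Mrps25, a mitochondrion-specific protein of the small subunit, had the smallest p of any member in both regions. In frontal cortex its lowest, median and highest level were 27.3, 28.1 and 30.3 CPM in wild-type and 30.8, 31.6 and 34.4 CPM in Igf2enh-/- mice. The groups did not overlap, for 1 member of 76 against 1.31% of all genes. The log2 fold change was 0.18 ± 0.04 (edgeR quasi-likelihood unadjusted p = 0.000562, adjusted p = 0.0738). It passed with edgeR's likelihood ratio test (adjusted p = 0.0186), which the study's methods name, and with DESeq2 (adjusted p = 0.0199). These called 232 and 242 genes against 53. The adjusted p of Mrps25 ran from 0.0186 to 0.167 over all alternatives.

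In striatum Mrps25 was at 22.7, 25.7 and 27.1 CPM in wild-type and at 25.5, 27.5 and 30 CPM in Igf2enh-/- mice, which overlap. The log2 fold change was 0.14 ± 0.05 (edgeR unadjusted p = 0.00979, adjusted p = 0.348). No member had groups that did not overlap in striatum, against 0.231% of all genes. Mrps25 shares 53.7% of its exon bases with Nr2c2 on the other strand, and the genotype log2 fold change of Nr2c2 was -0.05 ± 0.04 in cortex and 0.14 ± 0.04 in striatum, neither past the threshold. Between regions Mrps25 was lower in striatum in both genotypes (log2 -0.18 ± 0.05 and -0.22 ± 0.04), and Nr2c2 in wild-type mice (log2 -0.18 ± 0.04) with -0.00 ± 0.04 in Igf2enh-/- mice.

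The other members of smallest p in cortex were Mrpl46 (log2 0.13 ± 0.05), Mrpl20 (0.09 ± 0.03) and Mrps18a (0.09 ± 0.04), with edgeR adjusted p of 0.234, 0.259 and 0.307. In striatum they were Mrps26 (log2 -0.11 ± 0.04), Mrps34 (-0.12 ± 0.05) and Mrpl54 (-0.15 ± 0.06), with edgeR adjusted p of 0.384, 0.426 and 0.431. No member had unadjusted p under 0.05 with opposite signs in both regions.

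**Figure D5:**
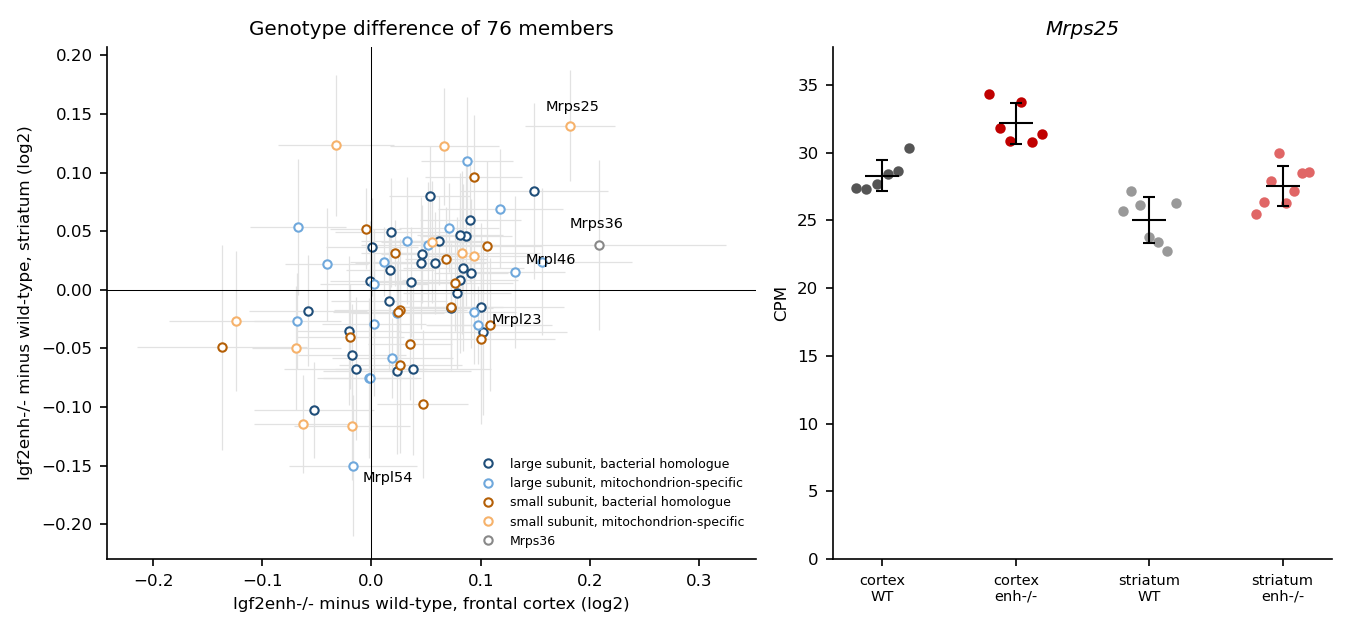
Left, log2 fold change of Igf2enh-/- over wild-type for 76 members in frontal cortex (x axis) and striatum (y axis), with standard errors as grey lines; no member passed the test in either. Right, CPM of Mrps25 in each library of wild-type (WT) and Igf2enh-/- (enh-/-) mice with group mean and SD, where the cortex groups do not overlap and the striatum groups do.

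Mrpl23 is the member nearest to the deleted fragment, on the far side of H19, and was looked up for that place after its values had been seen. In NCBIM37 the gene spans 7:149718704-149726652 and ends 69.7 kb from the deletion at 7:149796331-149801250. In frontal cortex it ran from 4.34 over a median of 5.13 to 5.52 CPM in wild-type and from 5.05 over 5.61 to 5.77 CPM in Igf2enh-/- mice. In striatum it ran from 5.85 over 6.96 to 7.89 CPM and from 6.14 over 6.58 to 8.56 CPM. The genotypes overlapped in both regions, and the log2 fold changes of 0.10 ± 0.08 in cortex and -0.01 ± 0.07 in striatum did not pass (edgeR adjusted p = 0.591 and 0.966).

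No member passed the test of whether its genotype effect differed between regions. The test of region by genotype called 0 of 76 members and 0% of the 13414 genes with edgeR's quasi-likelihood test, likelihood ratio test and DESeq2 alike. An unadjusted p under 0.05 was found for 1 member and for 405 genes. That member was Mrpl51, with a log2 difference of -0.13 ± 0.05 (edgeR adjusted p = 1.00). Mrpl51 had medians of 21.9 and 24.5 CPM in wild-type and Igf2enh-/- cortex and of 23.7 and 23.2 CPM in striatum. Mrps18a (-0.12 ± 0.06), Mrps22 (0.15 ± 0.08) and Mrps24 (-0.14 ± 0.08) followed, also with edgeR adjusted p of 1.00.

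Between males and females, again 0 of 76 members passed. In frontal cortex 0.0431% of all genes passed and 1 member, beside 1054 genes, had an unadjusted p under 0.05 (edgeR quasi-likelihood), Mrpl36, lower in males (log2 -0.18 ± 0.06, adjusted p = 0.55). In striatum 0.0432% passed and 6 members and 1496 genes had an unadjusted p under 0.05, the members led by Mrps5 (log2 0.10 ± 0.03), Mrpl23 (-0.22 ± 0.07), Mrpl30 (-0.14 ± 0.05) and Mrpl52 (-0.17 ± 0.06), with an edgeR adjusted p of 0.448 for each. DESeq2 and the likelihood ratio test called no member either.

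Other genes of mitochondrial gene expression are given beside 67.7% of all genes called between regions in wild-type and 68.9% in Igf2enh-/- mice. The 5 mitochondrial ribosomal proteins with other names, Dap3 among them, had 1 call in each genotype between regions, Chchd1 higher in wild-type striatum (log2 0.18 ± 0.06) and Dap3 lower in Igf2enh-/- striatum (log2 -0.09 ± 0.03). Of 14 translation factors tested, 2 were higher and 8 lower in wild-type striatum and 3 and 7 in Igf2enh-/- striatum. Guf1, a back-translocating elongation factor, was higher (log2 0.21 ± 0.05 and 0.26 ± 0.05), and Tufm, the mitochondrial elongation factor Tu, was lower (log2 -0.11 ± 0.04 and -0.19 ± 0.04). Of 27 assembly and rRNA modification factors, 8 were higher and 7 lower in wild-type mice, led by the rRNA methyltransferase Mrm1 (log2 -0.83 ± 0.10) and the GTPase Mtg2 (log2 0.44 ± 0.06), and 7 and 5 in Igf2enh-/- mice (log2 -0.89 ± 0.10 and 0.40 ± 0.06).

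Of 17 mitochondrial aminoacyl-tRNA synthetases, 6 were higher and 5 lower in wild-type and 7 and 6 in Igf2enh-/- striatum, with Nars2, for asparagine, at log2 0.55 ± 0.08 and 0.54 ± 0.08. Of 8 genes of mitochondrial transcription and mRNA stability, 2 were higher and 1 lower, and 3 and 0. The lower one was Tfam, which packages and transcribes mitochondrial DNA (log2 -0.15 ± 0.04 in wild-type mice). The ribosomal RNAs of the mitochondrial genome had no call in wild-type mice, and mt-Rnr1 was lower in Igf2enh-/- striatum (log2 -0.16 ± 0.06), in libraries that had been depleted of ribosomal RNA.

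Only 7 of 12 mRNAs of the mitochondrial genome passed the filter, and why the others did not was not tested. Of the 7, 6 were higher in striatum in both genotypes, with median log2 fold changes of 0.33 and 0.27. mt-Nd4, a subunit of complex I, had 0.43 ± 0.05 and 0.38 ± 0.05. The 81 cytosolic ribosomal protein genes tested had 70 higher and 1 lower in wild-type striatum and 44 and 3 in Igf2enh-/- striatum, and the 72 nuclear respiratory chain genes 26 and 12, and 12 and 20. Beside these the members of the mitochondrial ribosome had 16 and 18, and 13 and 29, and the difference between lists was not tested.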

How the data were processed

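Whole-number counts of reads per gene were deposited by the authors as 1 table for each region. They come from total RNA depleted of ribosomal RNA and read as 75-base single ends over 3 flow cells. Per the labels, bcl2fastq 1.9.0, Trim Galore 0.5.0 and STAR were used, with GRCm38. The strand setting and the handling of reads shared by genes are not given in the sources used here.

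TMM scaling and edgeR 4.0.16 (R 4.3.3; quasi-likelihood F-test) were applied to genes that reached 1 CPM throughout the libraries being fitted. Benjamini-Hochberg adjustment ran over all of those genes, with a threshold of 0.05. Genotype was fitted within each region with sex as a term, and region over all 27 libraries with 4 groups and sex. The fits were repeated with DESeq2 1.42.0, with a likelihood ratio test, and with other scalings and filters, other covariates and with libraries left out. A standard error is the fold change divided by the square root of its F statistic. Scripts were tested on simulated data with 200 changed genes.

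Exon lengths and overlaps came from GENCODE vM1 (NCBIM37), and positions and promoter windows from RefSeq GRCm38.p6. Members, gene lists and motifs were chosen with earlier results of these data known. Members were named by rule: up to 6 of smallest p in each direction where any passed a comparison and 4 otherwise, the 4 highest and 4 lowest per kilobase, the 3 most and 3 least variable, any that failed the filter, and the S18 paralogues. In other lists the 2 genes of smallest p could be named. Mrpl23's position and Mrpl28 were exceptions. Libraries count as separate samples by their labels, and p-values measure the spread between them.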

Additional observations from a re-analysis of the deposited data

Results flagged for a closer look

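Named members other than Mrpl53, the summed levels and the ratio of the subunit sums were checked in each group. In 7 of these 176 checks (3.98%), 1 library lay far from the others by Dixon's criterion, which chance alone gives in about 1 in 20. All 7 were of single members. Mrpl48 was at 35.5 CPM in library 20 (wild-type striatum), and Mrpl58 at 26.4 CPM in library 23 (Igf2enh-/- striatum), the highest value of each group. These libraries had the highest sums of cortical projection neuron markers of striatum, 1352 and 1007 CPM, and both members were lower in striatum than in cortex. The part of those markers in the values was not tested.

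Mrpl44 was at 20.2 CPM in library 13 and Mrps26 at 28.4 CPM in library 25, both Igf2enh-/- striatum, above and below the rest of their group. In frontal cortex, Mrpl46 at 14.9 CPM in library 1 and Mrps24 at 16.6 CPM in library 9 were below the other Igf2enh-/- libraries, and Mrps2 at 31.5 CPM in library 8 was above the other wild-type ones.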

How the results depend on the processing

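No paired analysis was possible because the libraries are numbered 1 to 27 with no number shared between groups. Members called in frontal cortex between genotypes went from 0 to 1, Mrps25, under the likelihood ratio test and under DESeq2. Members called between regions ran from 29 to 35 in wild-type and from 31 to 42 in Igf2enh-/- mice, and no named member reversed its sign where it was called. Over all genes, calls between genotypes in frontal cortex numbered 53, and 232 with the likelihood ratio test, 242 with DESeq2, 459 with no filter and 29 with RNA integrity as a term, and leaving out 1 library gave 8 to 99. In striatum they numbered 5, and 56, 112 and 10 under the first 3 of these, 13 with filterByExpr, 3 without the sex term and 13 without libraries 15, 20 and 22, and leaving out 1 library gave 3 to 8. Calls between sexes numbered 6 in each region. In frontal cortex they were 28 with the likelihood ratio test, 21 with DESeq2, 14 with filterByExpr and 185 with no filter, and in striatum 12, 16, 12 and 14. The cause of these changes was not tested.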
